A study of Homo sapiens with 12 samples.

Results

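Transcript levels of 31 glycolysis and hypoxia genes were described in 12 messenger RNA libraries of hTERT RPE-1 cells, a telomerase-immortalised line derived from human retinal pigment epithelium. The 31 genes were taken by symbol: 2 glucose transporters, 15 enzymes of the glycolytic chain, 2 genes of lactate production and export, 3 genes that control glycolytic flux, and 9 genes of the hypoxia response with its factor HIF1A. Each symbol matched 1 of the 60708 gene identifiers in the files, and 30 of the 31 had enough counts to be tested among 15388 genes. EGLN3, which encodes a prolyl hydroxylase that marks HIF for degradation, had 0 counts in every library and was not tested. A count of 0 allows up to 3 counts in a library.

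The study set cells with extra lamin B1, a filament protein under the inner nuclear membrane, against cells with a fluorescent protein alone. LmnB1_16 and LmnB1_6 are clones that overexpress lamin B1 fused to mCherry, and mCherry_4 and mCherry_3 are clones that overexpress mCherry. All 4 clones had been given doxycycline at 0.05 ug/mL for 24 hours, so no untreated culture is part of these comparisons. Each clone gave 3 libraries labelled as biological replicates. A construct thus rests on 2 clones, and the 3 libraries of each share that clone's history. The p-values of contrasts between clones reflect library-to-library spread within clones, which may be technical. Those of the main construct comparison treat the libraries of a construct as independent. They mix that spread with differences between its 2 clones.

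Glycolysis splits glucose into pyruvate in the cytosol and yields ATP without oxygen. Glucose enters through facilitative transporters, hexokinases trap it as glucose 6-phosphate, phosphofructokinases commit it to breakdown, and lactate dehydrogenase A with a monocarboxylate carrier disposes of the pyruvate as lactate. HIF-1, made of HIF1A and ARNT, is degraded when oxygen is plentiful and otherwise switches on many of these genes together with genes for pH control, mitophagy and collagen hydroxylation. The retinal pigment epithelium is known for sparing glucose, so that it passes from the blood to the photoreceptors.

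HIF-1 binds a core that reads ACGTG or GCGTG, so the promoters of 4 genes that the results turn on are shown: SLC2A1 and HK2, which set LmnB1_6 apart, and ENO1 and LDHA, which set mCherry_3 apart. Each is the 250 bases before an annotated start site, 5′ to 3′ on the gene's strand, from RefSeq on GRCh38.p14, and capitals mark ACGTG read on either strand. SLC2A1 is at chr1:42958869-42959118 on the minus strand, HK2 at chr2:74833877-74834126 on the plus strand, ENO1 at chr1:8878687-8878936 on the minus strand and LDHA at chr11:18394313-18394562 on the plus strand. HK2 and LDHA have further windows in the table, and the first by coordinate is shown. In GENCODE 29, used here for gene spans, each of the 4 genes starts further upstream, so the windows of HK2 and LDHA lie partly and those of SLC2A1 and ENO1 wholly inside the span.
SLC2A1: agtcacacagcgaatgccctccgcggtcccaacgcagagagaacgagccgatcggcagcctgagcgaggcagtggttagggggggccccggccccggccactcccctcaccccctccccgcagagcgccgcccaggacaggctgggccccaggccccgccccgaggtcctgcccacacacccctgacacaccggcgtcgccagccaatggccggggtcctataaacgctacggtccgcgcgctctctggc
HK2: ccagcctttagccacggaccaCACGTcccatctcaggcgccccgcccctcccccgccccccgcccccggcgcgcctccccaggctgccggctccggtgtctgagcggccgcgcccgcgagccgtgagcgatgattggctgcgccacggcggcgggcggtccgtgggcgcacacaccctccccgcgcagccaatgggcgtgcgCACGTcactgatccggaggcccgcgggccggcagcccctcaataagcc
ENO1: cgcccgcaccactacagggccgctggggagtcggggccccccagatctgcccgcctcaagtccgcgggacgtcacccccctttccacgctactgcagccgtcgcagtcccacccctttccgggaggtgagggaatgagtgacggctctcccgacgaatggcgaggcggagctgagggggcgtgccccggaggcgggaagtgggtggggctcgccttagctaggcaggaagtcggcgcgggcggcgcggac
LDHA: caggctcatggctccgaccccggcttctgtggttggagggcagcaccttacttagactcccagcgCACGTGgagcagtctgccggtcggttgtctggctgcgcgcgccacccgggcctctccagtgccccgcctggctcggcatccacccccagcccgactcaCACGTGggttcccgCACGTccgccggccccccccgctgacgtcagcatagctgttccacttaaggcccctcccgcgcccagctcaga
The window of HK2 held ACGTG at 2 places and that of LDHA at 3 places, 2 of which read CACGTG on both strands, while ACGTG was not among the letters of the SLC2A1 and ENO1 windows. GCGTG, which is not capitalised, was at 2 places in the ENO1 window and 1 in that of HK2, and not among the letters of the SLC2A1 and LDHA windows. Of the 55 windows of 28 listed genes, 21 (38.2%) held ACGTG on either strand, beside 18.5% of 35114 promoter windows of the same length. CACGTG, which contains ACGTG, was in 14.5% of the listed genes' windows and 6.35% of all windows, and GCGTG in 30.9% and 32.2%. Windows of a gene can overlap, and a match of letters is a description and not a binding site. NDRG1, BNIP3L and SLC2A3 are named without a sequence.

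The libraries held estimated counts of 20.6 M at the lowest and 29.5 M at the highest (M, 10 to the power 6), 14146 to 14906 genes had at least 10 counts, and mitochondrial transcripts took 2.06% to 2.69% of the counts. Levels are in CPM, TMM-scaled counts per M of the library total, and a value with ± is a clone's mean and SD (n = 3). LMNB1 (chromosome 5, 126776623 to 126837020, GRCh38), the gene that the fusion carries, had 3374 ± 273 CPM in LmnB1_16 and 3976 ± 164 in LmnB1_6, against 161 ± 7.29 in mCherry_4 and 85.0 ± 7.12 in mCherry_3. The construct labels of all 12 libraries thus held, while clone and replicate labels are not checked by this gene. The LMNB1 counts pool reads of the fusion with those of the cell's own LMNB1.

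The cell type on the labels was checked against 14 markers of retinal pigment epithelium, whose summed level was 844 to 889 CPM in LmnB1_16, 599.5 to 647 in LmnB1_6, 924 to 996 in mCherry_4 and 1245 to 1389 in mCherry_3. RPE65, TTR and TYR were at 0 counts in every library. Most of the sum was the keratins KRT8 and KRT18. MITF, a regulator of pigment cells, averaged 31.3, 0.0590, 49.0 and 58.6 CPM in LmnB1_16, LmnB1_6, mCherry_4 and mCherry_3, and OTX2 averaged 15.5, 0, 11.1 and 12.6. Against mCherry_4, MITF, OTX2, LRAT, RDH5, KRT8 and KRT18 were called lower in LmnB1_6 (edgeR). SERPINF1 (log2 fold change 2.81) and PMEL (0.79) were called higher there, and BEST1 was not called. The 12 mitotic markers summed to 3036 to 3621 CPM in LmnB1_16, 2791 to 3214 in LmnB1_6, 2762 to 3098 in mCherry_4 and 1435 to 1552 in mCherry_3. All 12 of them were called lower in mCherry_3 than in each of the other 3 clones (edgeR). Summed levels of markers of other cells were 5549 to 5671, 5377 to 6256, 6204 to 6797 and 3457 to 3564 CPM for 8 fibroblast and mesenchymal genes in the same clone order, nearly all of it VIM. They were 4.09 to 4.92, 1.85 to 2.65, 5.38 to 6.91 and 1.22 to 2.04 CPM for 6 leukocyte genes, with CD3E at 0. For 6 endothelial genes they were 8.87 to 10.4, 5.01 to 7.18, 4.83 to 5.68 and 15.4 to 18.4 CPM. For 6 muscle genes they were 81.3 to 95.2, 25.2 to 34.9, 55.8 to 56.5 and 127 to 153 CPM, nearly all of it TNNT1, with MYOD1 and MYOG at 0. The part of these markers in the results below was not tested. In such libraries fewer cells of a type and less RNA per cell cannot be told apart.

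**Figure D1:**
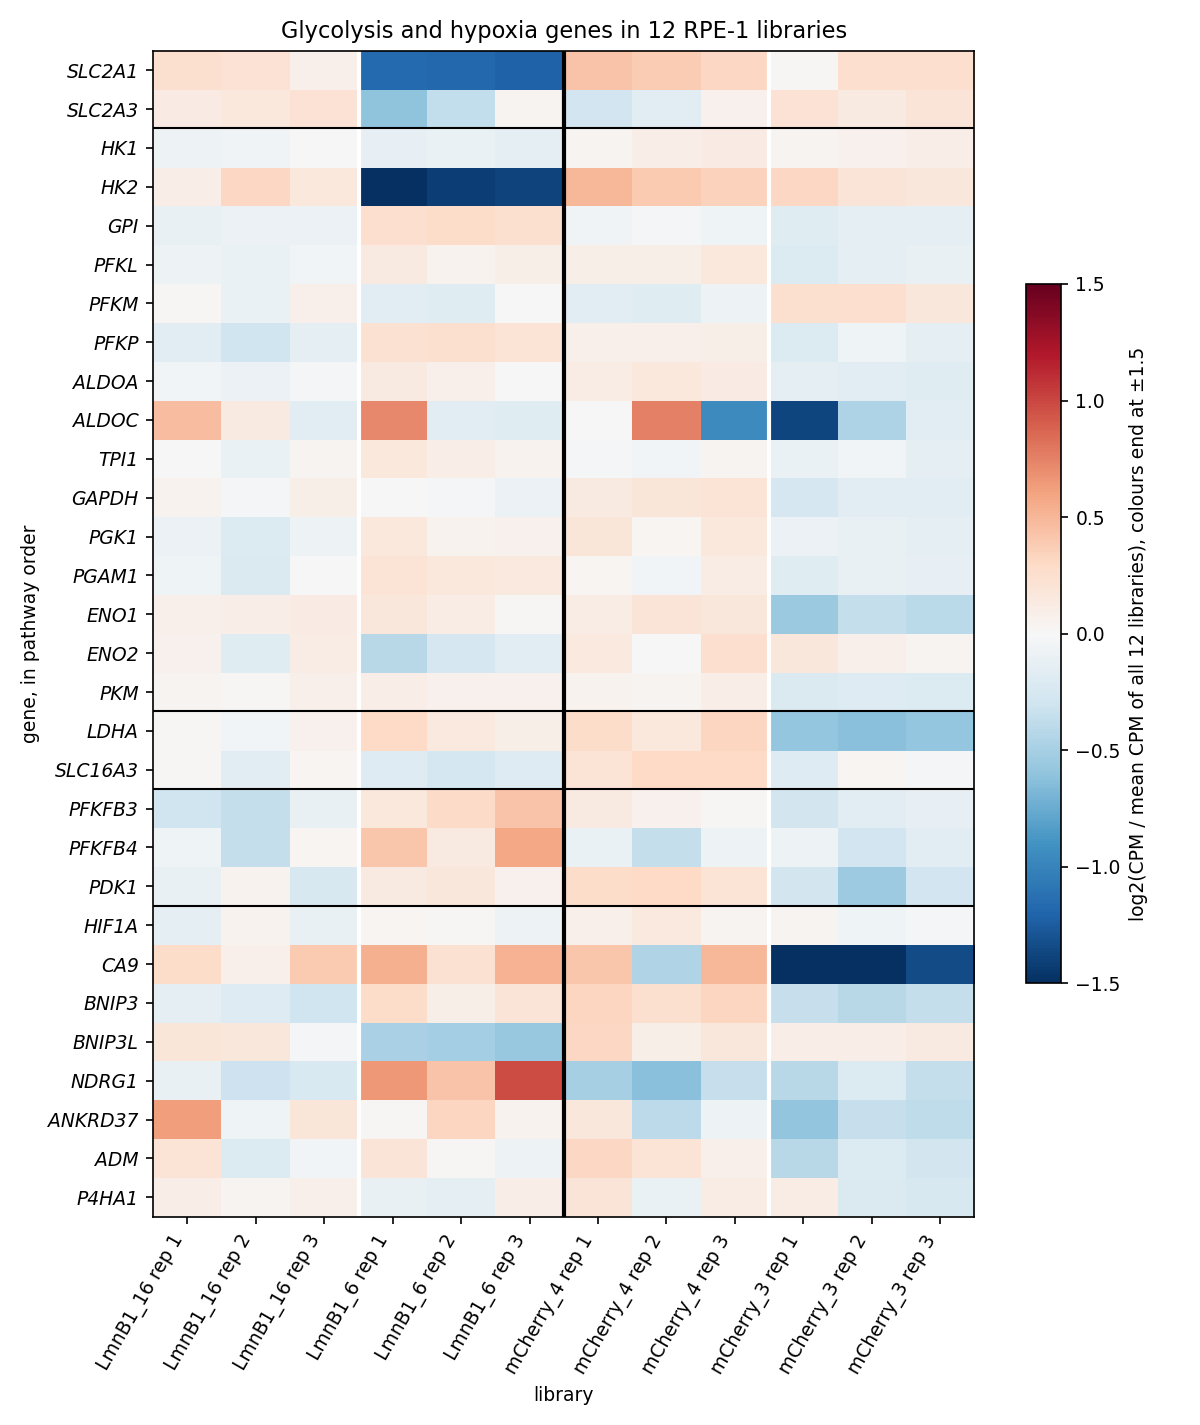
Level of each of the 30 tested glycolysis and hypoxia genes in each library, as log2 of CPM over the gene's mean CPM in all 12 libraries (red higher, blue lower), with genes in pathway order and libraries grouped by clone, LmnB1 clones on the left. SLC2A1 and HK2 are blue in the 3 LmnB1_6 libraries, and ENO1, LDHA and CA9 are blue in the 3 mCherry_3 libraries; CA9 lies past the end of the scale in 2 of them.

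Between the constructs, 1 of these genes rose and 1 fell. Of the 30 tested, 2 were called between the 6 LmnB1 and the 6 mCherry libraries (edgeR, Benjamini-Hochberg adjusted p under 0.05), while 17.8% of all 15388 genes were called (8.58% higher, 9.25% lower). NDRG1, a stress and hypoxia response gene, rose, and HK1, the housekeeping hexokinase, fell. The median log2 fold change of the 30 was 0.03, beside 0.00 over all genes tested, with 19 above 0 and 11 below. No listed gene was called in the same direction in every pairing of LmnB1_16 or LmnB1_6 with mCherry_4 or mCherry_3 (4 pairings), which 4.68% of all genes were (1.77% higher, 2.91% lower). DESeq2 called 1, HK1, as lower in all 4, and 10 of the 30 had an unadjusted p under 0.05 in the construct comparison. The shares of all genes for these counts, and for later counts at an unadjusted p, are not given here.

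HK1 had 375, 381 and 394 CPM in LmnB1_16 and 362, 369 and 361 in LmnB1_6, against 408, 425 and 431 in mCherry_4 and 406, 414 and 426 in mCherry_3. In CPM every LmnB1 library was below every mCherry library (log2 fold change -0.16, SE 0.04, edgeR adjusted p = 0.0219). In TPM the constructs overlapped, with 181 in LmnB1_16 replicate 2, against 176 in mCherry_4 replicate 1. By clone, HK1 was called lower in LmnB1_6 than in mCherry_4 (-0.21) and mCherry_3 (-0.19), and had log2 fold changes of -0.14 and -0.12 in LmnB1_16 against the same clones (edgeR adjusted p = 0.0682 and 0.0613).

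NDRG1 had 24.8, 21.6 and 22.9 CPM in LmnB1_16 and 41.9, 36.1 and 52.7 in LmnB1_6, against 19.0, 17.3 and 21.1 in mCherry_4 and 20.1, 23.3 and 20.9 in mCherry_3. The 3 LmnB1_6 libraries were above all 9 others, while LmnB1_16 overlapped mCherry_3. The construct difference was a log2 fold change of 0.72 (SE 0.20, edgeR adjusted p = 0.0324). NDRG1 rose in LmnB1_6 by 1.19 against mCherry_4 and 1.03 against mCherry_3, and its values in LmnB1_16 were 0.27 and 0.11 (edgeR adjusted p = 0.166 and 0.515).

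The construct count rested on which clones were in it. Without LmnB1_6, 0 listed genes were called between the constructs by edgeR (2 at an unadjusted p under 0.05; 8.38% of all genes called), and without LmnB1_16 12 were, 6 higher and 6 lower (31.7% of all genes). Without mCherry_4, 12 were called, 10 higher and 2 lower (32.5% of all genes), and without mCherry_3 1 was, SLC16A3 (4.32% of all genes). With counts summed per clone 0 were called by edgeR (0 at an unadjusted p under 0.05; 0.0% of all genes), and with clone as a random effect 0 by limma (5 at an unadjusted p under 0.05; 1.06% of all genes). A block on the replicate number left 1, HK1 (10.7% of all genes), and DESeq2 called 4, HK1, ENO2, SLC16A3 and NDRG1 (24.3% of all genes).

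Between single clones the calls were as follows. In LmnB1_6 against mCherry_3, 25 of the 30 were called, 18 higher and 7 lower (52.8% of all genes, 26.0% higher and 26.8% lower), and in LmnB1_6 against mCherry_4 12 were, 5 higher and 7 lower (37.2% of all genes, 17.1% higher and 20.1% lower). In LmnB1_16 against mCherry_3, 10 were called, 9 higher and 1 lower (44.4% of all genes, 22.5% higher and 22.0% lower), and in LmnB1_16 against mCherry_4 9 were, each of them lower (15.7% of all genes, 6.67% higher and 9.0% lower). The clones of a construct differed as well: 16 genes in LmnB1_16 against LmnB1_6, 6 higher and 10 lower (34.4% of all genes, 17.8% higher and 16.6% lower), and 17 in mCherry_4 against mCherry_3, 16 higher and 1 lower (37.4% of all genes, 19.9% higher and 17.4% lower). These contrasts share clones and are not independent of each other. HIF1A, P4HA1 and ALDOC were called in none of the 7 comparisons by edgeR.

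On deposited TPM the splits moved. LmnB1_6 against mCherry_3 then had 10 higher and 8 lower, LmnB1_16 against mCherry_3 5 higher and 2 lower, and mCherry_4 against mCherry_3 7 higher and 2 lower (limma on log2 of TPM + 1). On that scale the median of all genes was itself at -0.11 in LmnB1_6 against mCherry_3, and at -0.12 in mCherry_4 against mCherry_3 with a pseudocount of 0.1. The shares of all genes called on TPM are not given here, so these splits have no background beside them.

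**Figure D2:**
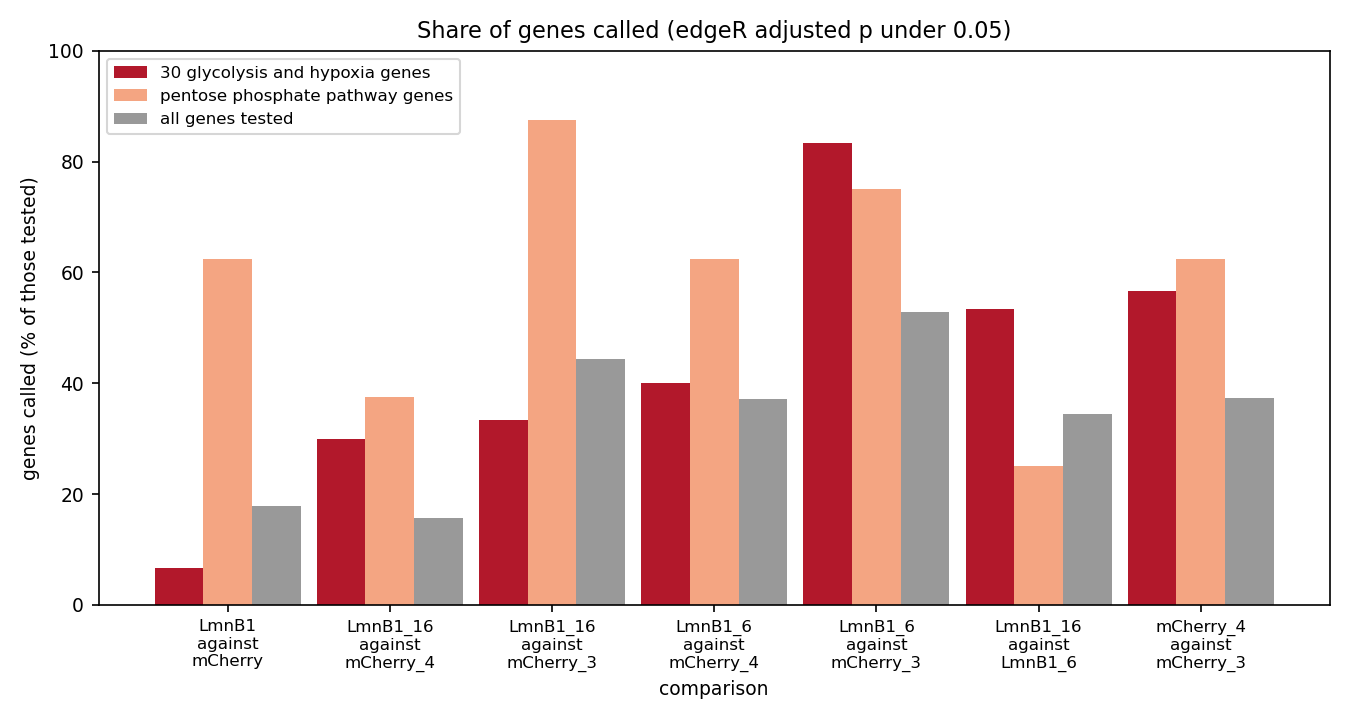
Percent of the 30 glycolysis and hypoxia genes, of 8 pentose phosphate pathway genes and of all 15388 tested genes that were called in each of 7 comparisons (edgeR adjusted p under 0.05). Between the constructs 6.67% of the listed genes and 17.8% of all genes were called, and in LmnB1_6 against mCherry_3 83.3% of the listed genes and 52.8% of all genes.

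Counting genes that one clone set apart from each of the other 3 in the same direction, LmnB1_6 had 9 of the 30, beside 18.9% of all genes, and mCherry_3 had 9, beside 21.7%. In LmnB1_6, SLC2A1, HK2, ENO2 and BNIP3L were lower (10.7% of all genes were) and GPI, PFKP, PFKFB3, PFKFB4 and NDRG1 higher (8.22% of all genes were). In mCherry_3, GAPDH, ENO1, PKM, LDHA, PDK1, CA9, BNIP3 and ADM were lower (11.7% of all genes were) and PFKM higher (9.91% of all genes were). mCherry_4 had 1, SLC16A3, which was higher, beside 3.04% of all genes (1.95% higher, 1.09% lower). LmnB1_16 had 0, beside 4.75% of all genes (2.09% higher, 2.66% lower). These counts depend on the setting. On TPM (limma), a call behind them was lost for GAPDH, PKM, PFKM, PDK1, BNIP3 and ADM in mCherry_3. The same held for PFKFB3 and PFKFB4 in LmnB1_6 and for SLC16A3 in mCherry_4. The share of all genes set apart on TPM is not given here.

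SLC2A1 and HK2 were lowest in LmnB1_6. SLC2A1 (chromosome 1, 42925375 to 42959176), which encodes the widespread glucose transporter GLUT1, had 533, 528 and 479 CPM in LmnB1_16 and 202, 199 and 195 in LmnB1_6, against 609, 588 and 562 in mCherry_4 and 459.7, 539 and 541 in mCherry_3. The 3 LmnB1_6 libraries were below all 9 others, mCherry_4 was highest, and LmnB1_16 and mCherry_3 overlapped. SLC2A1 fell in LmnB1_6 by 1.56 on the log2 scale against mCherry_4 (SE 0.07, edgeR adjusted p = 1.81e-11) and by 1.37 against mCherry_3 (SE 0.07, edgeR adjusted p = 7.42e-11). LmnB1_16 against mCherry_4 had a log2 fold change of -0.19 (edgeR adjusted p = 0.0599), and mCherry_4 was higher than mCherry_3 by 0.19 (edgeR adjusted p = 0.0304), a call lost in 7 of the other settings.

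HK2 (chromosome 2, 74833981 to 74893359), the inducible hexokinase bound to mitochondria, had 71.2, 82.8 and 74.5 CPM in LmnB1_16 and 19.8, 24.97 and 25.4 in LmnB1_6, against 93.7, 87.6 and 84.6 in mCherry_4 and 82.8, 76.2 and 75.2 in mCherry_3. LmnB1_6 was again below every other library, 3.78-fold lower than mCherry_4 (log2 fold change -1.92, SE 0.09, edgeR adjusted p = 4.54e-11) and 3.33-fold lower than mCherry_3 (log2 fold change -1.74, edgeR adjusted p = 1.24e-10). The promoter shown above holds both forms of the core for HK2 and neither for SLC2A1. SLC2A3, which encodes the high-affinity transporter GLUT3, was low, at 24.0 ± 0.881, 17.5 ± 4.06, 19.7 ± 2.45 and 24.2 ± 0.688 CPM in LmnB1_16, LmnB1_6, mCherry_4 and mCherry_3, and was called lower in LmnB1_6 than in mCherry_3 (-0.46) but not than in mCherry_4 (-0.16).

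**Figure D3:**
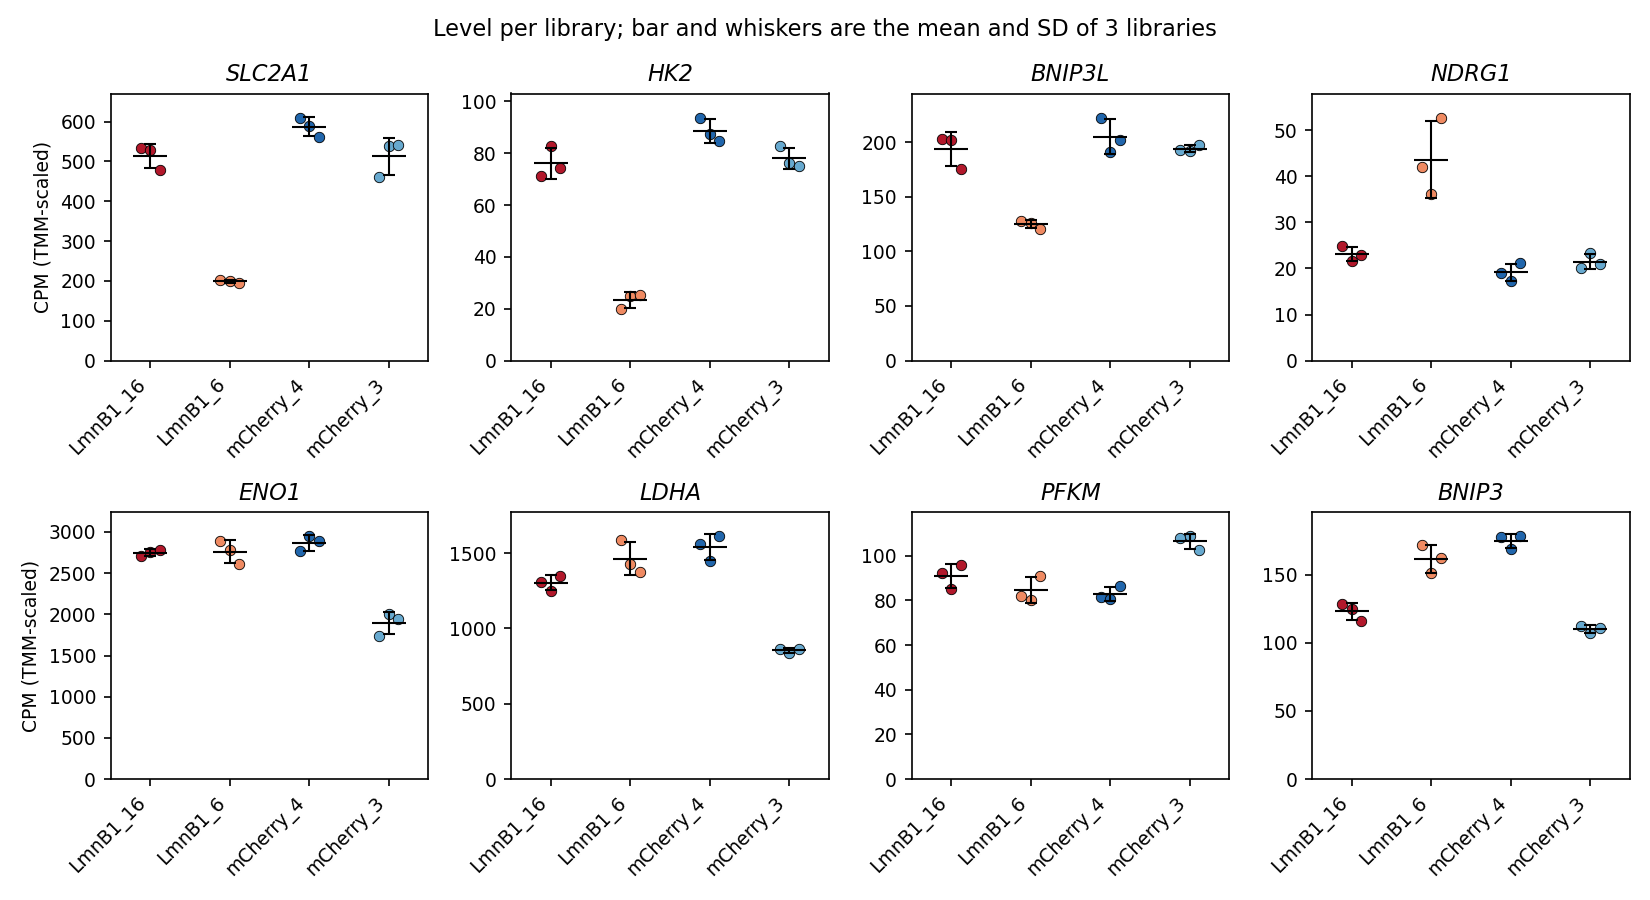
CPM (linear axes from 0) of 8 genes in the 3 libraries of each clone, with the mean and SD, LmnB1 clones on the left of each panel. SLC2A1, HK2 and BNIP3L are lowest and NDRG1 highest in LmnB1_6, ENO1, LDHA and BNIP3 are lowest in mCherry_3 (BNIP3 at 107 to 112 CPM, just under LmnB1_16), and PFKM is highest in mCherry_3.

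Per length, HK1 exceeded HK2 in every clone. HK2 made up 10.9% ± 0.708 of the summed TPM of HK1 and HK2 in LmnB1_16 and 3.79% ± 0.517 in LmnB1_6, against 11.4% ± 0.902 in mCherry_4 and 10.3% ± 0.670 in mCherry_3 (SD, n = 3). SLC2A3 was 2.08% ± 0.137, 4.02% ± 0.378, 1.497% ± 0.204 and 2.11% ± 0.287 of SLC2A1 plus SLC2A3 in LmnB1_16, LmnB1_6, mCherry_4 and mCherry_3. These shares are descriptions with no test.

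Further down the chain, GPI, PFKP, PFKFB3 and PFKFB4 were higher in LmnB1_6 than in each other clone. GPI, which turns glucose 6-phosphate into fructose 6-phosphate, had 231, 235 and 235 CPM in LmnB1_16 and 299, 302 and 296 in LmnB1_6, against 240.2, 245 and 239 in mCherry_4 and 221, 226 and 228 in mCherry_3. All 3 LmnB1_6 libraries were above the other 9, and GPI rose in LmnB1_6 by 0.31 against mCherry_4 (edgeR adjusted p = 4.77e-05) and 0.41 against mCherry_3 (edgeR adjusted p = 1.29e-06).

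PFKP, the platelet-type phosphofructokinase, had 369 ± 21.4 CPM in LmnB1_16 and 496 ± 6.53 in LmnB1_6, against 449 ± 2.26 in mCherry_4 and 385 ± 19.1 in mCherry_3. Its rise in LmnB1_6 against mCherry_4 (0.14, edgeR adjusted p = 0.0493) lost the call in 11 of the other settings, and that against mCherry_3 was 0.36 (edgeR adjusted p = 3.23e-05). PFKL, the liver type, had 157 ± 3.37, 176 ± 5.54, 178 ± 5.55 and 149 ± 4.69 CPM in LmnB1_16, LmnB1_6, mCherry_4 and mCherry_3 and was lower in LmnB1_16 than in mCherry_4 (-0.18, edgeR adjusted p = 0.022), a call lost in 6 of the other settings.

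PFKM, the muscle type, was highest in mCherry_3, with 92.1, 85.2 and 96.0 CPM in LmnB1_16 and 82.0, 80.4 and 91.2 in LmnB1_6, against 81.7, 80.4 and 86.5 in mCherry_4 and 108, 109 and 103 in mCherry_3. The 3 mCherry_3 libraries were above the other 9. PFKM was lower in LmnB1_16 (-0.22), LmnB1_6 (-0.33) and mCherry_4 (-0.36) than in mCherry_3, with edgeR adjusted p = 0.00852, 0.000324 and 0.000289, the first of which lost its call with effective length offsets and on TPM. It shares 628 exonic bases with SENP1 on the opposite strand, and strand is not given for these libraries, so its counts are uncertain. Of the summed TPM of the 3 phosphofructokinases, PFKP held 58.6% ± 0.397, 65.6% ± 1.14, 63.2% ± 0.806 and 58.3% ± 0.701 in LmnB1_16, LmnB1_6, mCherry_4 and mCherry_3, and PFKM 19.4% ± 1.20, 13.8% ± 2.12, 14.6% ± 1.69 and 21.8% ± 1.60.

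**Figure D4:**
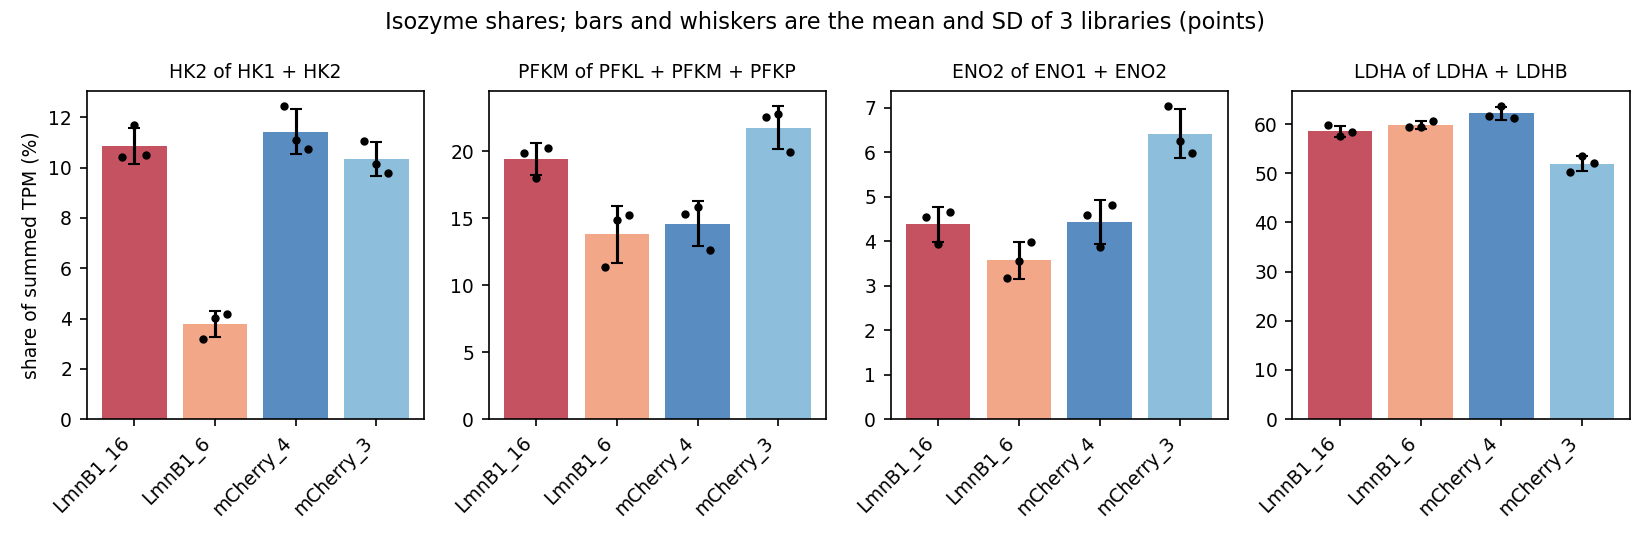
Share of 1 isozyme in the summed TPM of its family, in percent, for hexokinase, phosphofructokinase, enolase and lactate dehydrogenase; bars and whiskers are the mean and SD of the 3 libraries (points) of each clone, LmnB1 clones on the left. HK2 was 3.79% of the hexokinase TPM in LmnB1_6 and 10.3% to 11.4% in the other clones, and LDHA was 58.5% to 62.2% of the lactate dehydrogenase TPM in LmnB1_16, LmnB1_6 and mCherry_4, against 52.0% in mCherry_3.

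PFKFB3 and PFKFB4 make the fructose bisphosphate that activates phosphofructokinase. PFKFB3 had 49.4, 47.4 and 56.3 CPM in LmnB1_16 and 67.9, 74.5 and 81.8 in LmnB1_6, against 66.9, 63.6 and 61.7 in mCherry_4 and 50.4, 54.6 and 56.1 in mCherry_3. LmnB1_6 was above the other 9 libraries, by 0.22 against mCherry_4 (edgeR adjusted p = 0.0353) and 0.48 against mCherry_3 (edgeR adjusted p = 8.54e-05). PFKFB3 fell in LmnB1_16 by 0.33 against mCherry_4 (edgeR adjusted p = 0.01). The call in LmnB1_6 against mCherry_4 was lost in 7 of the other settings, that in LmnB1_16 against mCherry_4 in 4, and that in LmnB1_6 against mCherry_3 in 2, both on TPM. PFKFB4 had 18.1 ± 2.44 CPM in LmnB1_16 and 25.7 ± 3.93 in LmnB1_6, against 17.5 ± 1.84 in mCherry_4 and 17.4 ± 1.28 in mCherry_3, and rose in LmnB1_6 by 0.56 and 0.57 against those clones (edgeR adjusted p = 0.00177 and 0.00102), the second of which lost its call on TPM.

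In the middle of the chain, TPI1, triose phosphate isomerase, ran from 842 to 1037 CPM over the 12 libraries and was called in 1 comparison, LmnB1_6 against mCherry_3 (0.20), and in none on TPM. PGK1, a kinase step of the chain that yields ATP, ran from 396 to 517 CPM and PGAM1, a phosphoglycerate mutase, from 1089.9 to 1465. PGK1 and PGAM1 were both lower in LmnB1_16 than in LmnB1_6 (-0.21 and -0.27, edgeR adjusted p = 0.00709 and 0.00188), and PGK1 lost that call on TPM. ALDOA, the main aldolase, ran from 965 to 1227 CPM and was lower in LmnB1_16 than in mCherry_4 (-0.18, edgeR adjusted p = 0.0181), a call lost in 3 of the other settings. It shares 42.3% of its exonic bases with AC093512.2 on the same strand, so its counts are uncertain. ALDOC, the brain-type aldolase, had 5 to 20 counts in a library and less than 1 CPM in each, so a difference in it was not detectable at this depth.

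ENO1 and LDHA were lowest in mCherry_3. ENO1 (chromosome 1, 8861000 to 8879250), the main enolase, had 2703, 2755 and 2785 CPM in LmnB1_16 and 2890.2, 2782 and 2609 in LmnB1_6, against 2764, 2947 and 2886 in mCherry_4 and 1741, 2002 and 1945 in mCherry_3. The 3 mCherry_3 libraries were below all 9 others, which overlapped each other. ENO1 was higher in LmnB1_16 (0.54), LmnB1_6 (0.54) and mCherry_4 (0.60) than in mCherry_3, at edgeR adjusted p = 1.35e-06, 6.7e-07 and 6.32e-07.

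LDHA (chromosome 11, 18394388 to 18408425), which reduces pyruvate to lactate, had 1310.3, 1252 and 1349.9 CPM in LmnB1_16 and 1587, 1431 and 1373 in LmnB1_6, against 1563, 1446 and 1612 in mCherry_4 and 861, 836 and 866 in mCherry_3. mCherry_3 was again below every other library. LDHA was 1.53-fold, 1.71-fold and 1.80-fold higher in LmnB1_16, LmnB1_6 and mCherry_4, relative to mCherry_3 (edgeR adjusted p = 5.5e-07, 1.9e-08 and 2.23e-08), and lower in LmnB1_16 than in mCherry_4 (log2 fold change -0.24, edgeR adjusted p = 0.011), where the call was lost in 3 of the other settings. The promoters shown above hold ACGTG but not GCGTG for LDHA, and GCGTG but not ACGTG for ENO1.

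Per length, LDHA made up 58.5% ± 1.15 of the TPM of LDHA and LDHB in LmnB1_16 and 59.8% ± 0.769 in LmnB1_6, against 62.2% ± 1.28 in mCherry_4 and 52.0% ± 1.59 in mCherry_3. ENO2, the neuronal enolase, had 151 ± 15.7 CPM in LmnB1_16 and 124 ± 11.1 in LmnB1_6, against 165 ± 13.8 in mCherry_4 and 161 ± 7.41 in mCherry_3. It fell in LmnB1_6 by 0.41 and 0.37 on the log2 scale against those clones (edgeR adjusted p = 0.00101 and 0.00145). Its share of the enolase TPM was 4.39% ± 0.393, 3.57% ± 0.408, 4.43% ± 0.492 and 6.42% ± 0.550 in LmnB1_16, LmnB1_6, mCherry_4 and mCherry_3. A lower ENO1 raises this share by arithmetic, and ENO2 itself was not called in mCherry_4 against mCherry_3 by edgeR.

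GAPDH, the dehydrogenase often used as a loading control, had 4752, 4482 and 4843 CPM in LmnB1_16 and 4588, 4477 and 4283 in LmnB1_6, against 4998, 5172 and 5273 in mCherry_4 and 3840.0, 4055 and 4045 in mCherry_3. The mCherry_3 libraries were lowest and the mCherry_4 libraries highest. GAPDH was higher in LmnB1_16 (0.24), LmnB1_6 (0.16) and mCherry_4 (0.37) than in mCherry_3, and lower in LmnB1_6 than in mCherry_4 (-0.21, edgeR adjusted p = 0.00221). On log2 of TPM + 1 the difference between LmnB1_6 and mCherry_3 was 0.03 and not called (limma adjusted p = 0.666). The median of all genes was itself at -0.107 in that contrast and scale. PKM, whose muscle isoforms make pyruvate, had 3219 ± 64.0 CPM in LmnB1_16 and 3281 ± 56.7 in LmnB1_6, against 3252 ± 67.7 in mCherry_4 and 2698 ± 28.7 in mCherry_3, and was called lower in mCherry_3 than in each of the others by edgeR. On log2 of TPM + 1 its contrast of mCherry_4 with mCherry_3 was 0.13 and not called (limma adjusted p = 0.0593). There the median of all genes was -0.0986.

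SLC16A3, which encodes the lactate exporter MCT4, was highest in mCherry_4. It had 586, 513 and 590.5 CPM in LmnB1_16 and 504, 483 and 508 in LmnB1_6, against 669, 711 and 713 in mCherry_4 and 508, 590.4 and 569.8 in mCherry_3. All 3 mCherry_4 libraries were above the other 9. SLC16A3 was lower than in mCherry_4 in LmnB1_16 (-0.31, edgeR adjusted p = 0.00391) and LmnB1_6 (-0.49, edgeR adjusted p = 1.98e-05), while mCherry_4 exceeded mCherry_3 by 0.33 (edgeR adjusted p = 0.000985). The calls in LmnB1_16 against mCherry_4 and in mCherry_4 against mCherry_3 were lost with effective length offsets and on TPM, where mCherry_4 (569 to 673 TPM) overlapped mCherry_3 (448 to 621 TPM). It shares 482 exonic bases with CSNK1D on the opposite strand, so its counts are uncertain.

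PDK1, a kinase that inhibits pyruvate dehydrogenase, had 20.2, 22.6 and 18.5 CPM in LmnB1_16 and 24.0, 24.4 and 22.8 in LmnB1_6, against 26.4, 26.7 and 25.1 in mCherry_4 and 18.0, 14.9 and 17.9 in mCherry_3. mCherry_4 was highest and mCherry_3 lowest, and no clone overlapped another. PDK1 was lower in LmnB1_16 than in mCherry_4 (-0.35, edgeR adjusted p = 0.0156) while mCherry_4 exceeded mCherry_3 by 0.62 (edgeR adjusted p = 6.8e-05). PDK1 was also called higher in LmnB1_16 than in mCherry_3, a call lost in 6 of the other settings. Its deposited effective length was 3382 ± 233, 3440.3 ± 302, 3889 ± 675 and 3262 ± 34.9 bases in LmnB1_16, LmnB1_6, mCherry_4 and mCherry_3, and with effective length offsets PDK1 was called neither in LmnB1_16 against mCherry_4 (-0.16, edgeR adjusted p = 0.569) nor in mCherry_4 against mCherry_3 (0.39, edgeR adjusted p = 0.0617).

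**Figure D5:**
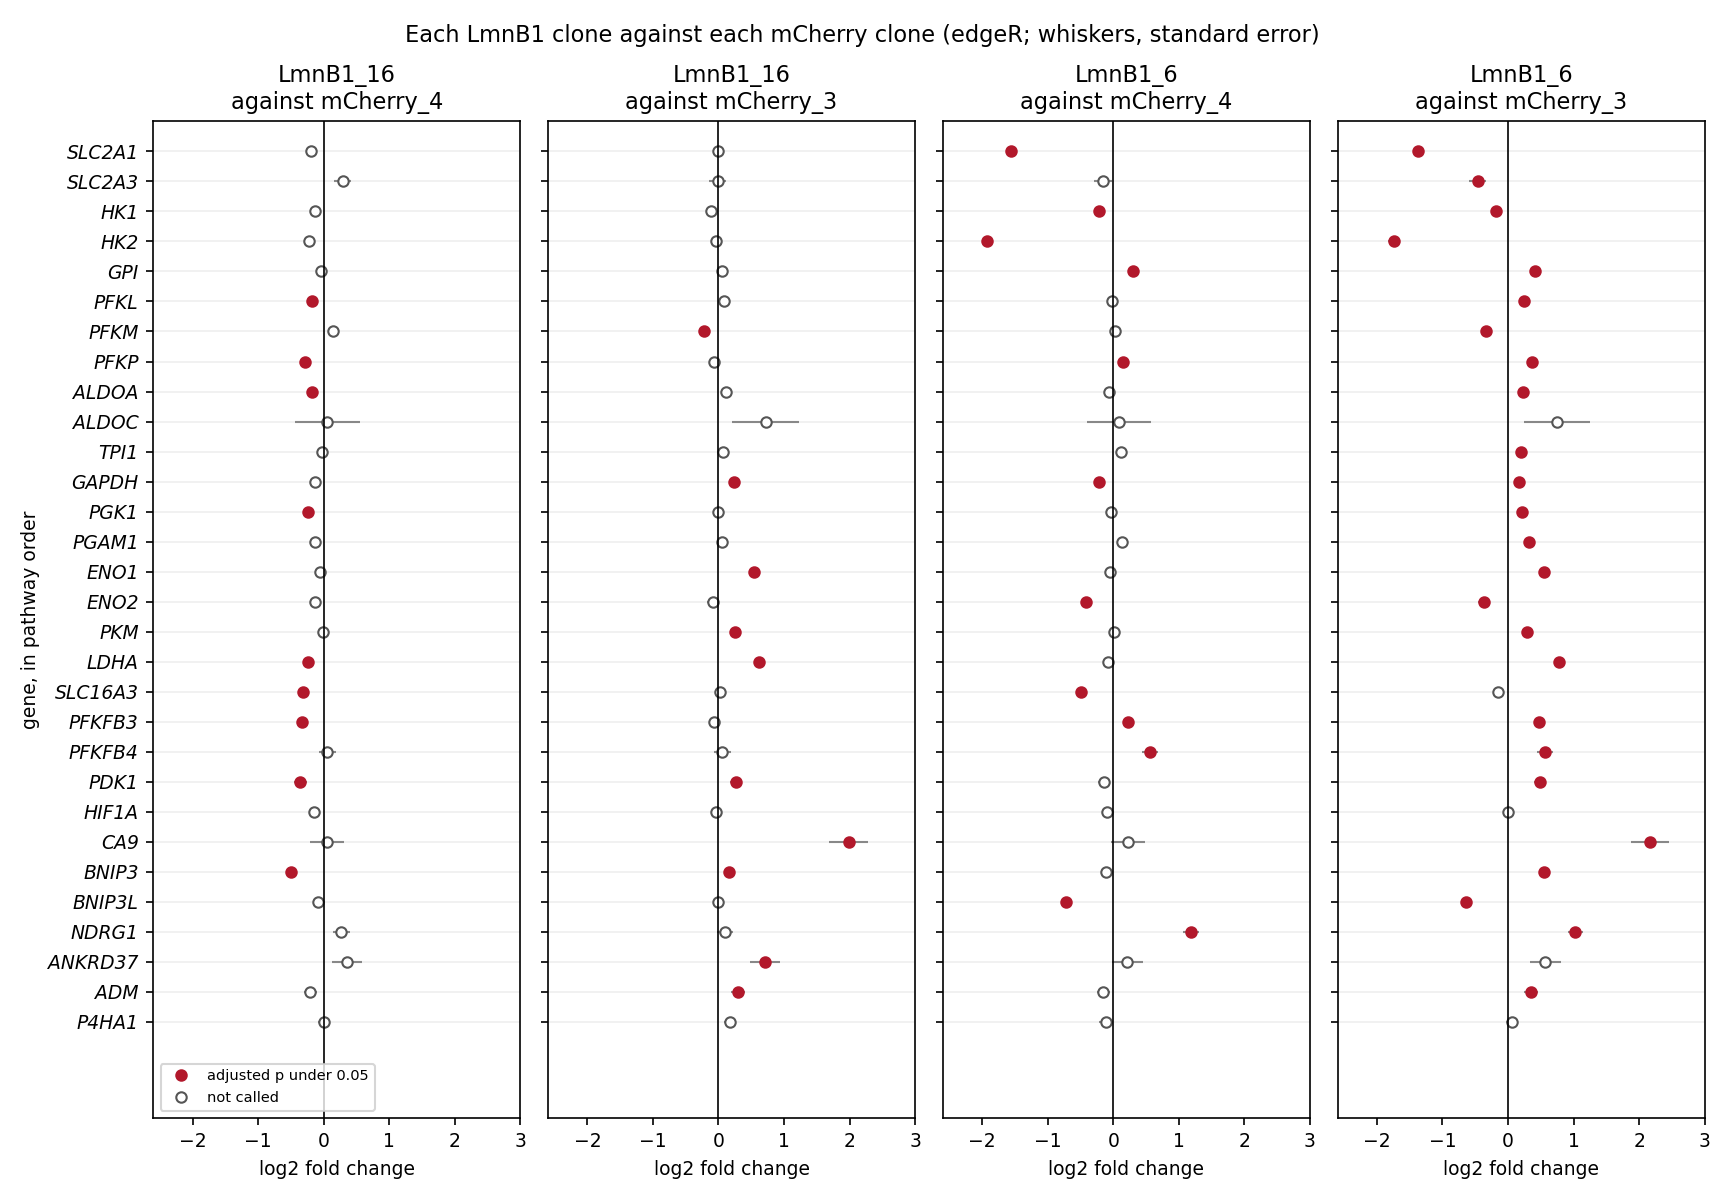
Log2 fold change (point) and standard error (whiskers) of the 30 tested genes in the 4 pairings of LmnB1 and mCherry clones, in pathway order from top to bottom; filled points had an edgeR adjusted p under 0.05. HK2 is at -1.92 and -1.74 in LmnB1_6 and at -0.22 and -0.04 in LmnB1_16, and LDHA is at 0.61 and 0.78 against mCherry_3 and at -0.24 and -0.07 against mCherry_4.

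In the hypoxia group HIF1A, the oxygen-regulated subunit of HIF-1, was called in none of the comparisons. It had 384, 439.9 and 390.0 CPM in LmnB1_16 and 430.5, 426 and 401 in LmnB1_6, against 447, 466 and 435 in mCherry_4 and 435, 404 and 414 in mCherry_3. LmnB1_16 overlapped the other 3 clones, mCherry_4 was above LmnB1_6 and mCherry_3, and the construct log2 fold change was -0.07 (SE 0.05, edgeR adjusted p = 0.356). HIF-1 is governed mainly through protein stability, which these libraries do not measure.

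BNIP3 and BNIP3L encode related receptors that bring mitochondria to autophagy. BNIP3 had 128, 125 and 116 CPM in LmnB1_16 and 172, 151 and 162 in LmnB1_6, against 178, 169 and 178 in mCherry_4 and 112, 107 and 111 in mCherry_3. mCherry_3 was below the other 9 libraries, closely followed by LmnB1_16. BNIP3 fell in LmnB1_16 by 0.51 against mCherry_4 (edgeR adjusted p = 1.28e-05) and rose in LmnB1_6 by 0.55 against mCherry_3 (edgeR adjusted p = 7.4e-07). Its difference between LmnB1_16 and mCherry_3 (0.16, edgeR adjusted p = 0.0381) lost the call in 10 of the other settings.

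BNIP3L had 203, 202 and 176 CPM in LmnB1_16 and 128, 126 and 121 in LmnB1_6, against 222, 191 and 201 in mCherry_4 and 193, 191 and 198 in mCherry_3. The 3 LmnB1_6 libraries were below the other 9. BNIP3L fell in LmnB1_6 by 0.71 against mCherry_4 and 0.63 against mCherry_3 (edgeR adjusted p = 2.47e-07 and 6.65e-07). It shares 330 exonic bases with PNMA2 on the opposite strand, and its counts are uncertain.

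CA9, carbonic anhydrase IX, a standard marker of hypoxic cells that controls pH, was at a few CPM or less. It had 2.82, 2.46 and 3.08 CPM in LmnB1_16 and 3.38, 2.75 and 3.36 in LmnB1_6, against 3.11, 1.71 and 3.30 in mCherry_4 and 0.495, 0.681 and 0.925 in mCherry_3, where the counts were 13, 19 and 25. The 3 mCherry_3 libraries were below the other 9. CA9 was higher in LmnB1_16 (1.99, SE 0.29), LmnB1_6 (2.17, SE 0.29) and mCherry_4 (1.94, SE 0.29) than in mCherry_3, at edgeR adjusted p = 4.36e-05, 1.04e-05 and 7.8e-05. It shares 38.5% of its exonic bases with ARHGEF39 on the opposite strand, so its counts are uncertain.

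ADM, the vasodilator peptide adrenomedullin, had 42.9 ± 6.23 CPM in LmnB1_16 and 44.5 ± 4.20 in LmnB1_6, against 49.4 ± 3.98 in mCherry_4 and 34.9 ± 2.54 in mCherry_3, and was called lower in mCherry_3 than in each other clone by edgeR. For ADM the call against LmnB1_16 was lost in 5 of the other settings and that against LmnB1_6 in 2, both on TPM. ANKRD37, an ankyrin repeat gene induced by HIF-1, stood at 2.86 ± 0.713, 2.60 ± 0.302, 2.23 ± 0.434 and 1.75 ± 0.163 CPM in LmnB1_16, LmnB1_6, mCherry_4 and mCherry_3, and was called in 1 comparison, LmnB1_16 against mCherry_3 (0.71, edgeR adjusted p = 0.0212), a call lost in 5 of the other settings. It shares 35.2% of its exonic bases with UFSP2 on the opposite strand and is uncertain. P4HA1, a collagen prolyl hydroxylase subunit, ran from 86.3 to 116 CPM with all clones overlapping. Several members have processed pseudogenes by name, 62 for GAPDH and 39 for BNIP3, whose counts came to at most 0.381% of the member's, apart from SLC2A3 at 4.58%.

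The summed level of the 31 genes was 19094 ± 512 CPM in LmnB1_16 and 19324 ± 587 in LmnB1_6, against 20777 ± 350 in mCherry_4 and 16427 ± 380 in mCherry_3. In summed TPM these were 19697 ± 447, 19040 ± 215, 20691 ± 290 and 17769 ± 391 in the same clone order. mCherry_3 was lowest on both scales. Of the marker sums given above, mCherry_3 also had the lowest for mitotic and for fibroblast and mesenchymal genes. It had the highest for retinal pigment epithelium, endothelial and muscle genes. A link of any of these with the summed level was not tested.

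Lists of genes around the pathway were counted in the same way. Of 8 pentose phosphate pathway genes, which turn glucose 6-phosphate into NADPH and ribose, 5 rose and 0 fell between LmnB1 and mCherry (median log2 fold change 0.22, beside 0.00 over all genes and 8.58% of all genes called higher). TKT, transketolase, had 492, 529 and 519 CPM in LmnB1_16 and 557, 527 and 544 in LmnB1_6, against 389.8, 422 and 411 in mCherry_4 and 284, 309.7 and 300.2 in mCherry_3. Every LmnB1 library was above every mCherry library (log2 fold change 0.58, SE 0.10, edgeR adjusted p = 0.004). PGD, the phosphogluconate dehydrogenase, stood at 243 ± 3.87 and 254 ± 6.14 in LmnB1_16 and LmnB1_6, against 216 ± 1.51 and 214 ± 7.71 in mCherry_4 and mCherry_3 (0.21, edgeR adjusted p = 0.00591). TKT and PGD were higher in all 4 pairings. RPIA, a ribose phosphate isomerase, rose by 0.62, and TALDO1, transaldolase, which was named after its values were seen, by 0.25 (edgeR adjusted p = 0.0198 and 0.039). Neither was called in LmnB1_16 against mCherry_4 (0.25 and 0.08, edgeR adjusted p = 0.299 and 0.329). TALDO1 was not called in LmnB1_6 against mCherry_4 either (0.11, edgeR adjusted p = 0.105). RPIA and TALDO1 were both higher in mCherry_4 than in mCherry_3 (0.45 and 0.33, edgeR adjusted p = 0.0239 and 8.39e-05).

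Of 14 tested genes of pyruvate entry to mitochondria, 1 rose and 3 fell between the constructs, beside 8.58% and 9.25% of all genes. PDP1, the phosphatase that reactivates pyruvate dehydrogenase, had 79.9, 89.2 and 71.8 CPM in LmnB1_16 and 117, 119 and 111 in LmnB1_6, against 65.7, 57.6 and 53.9 in mCherry_4 and 51.4, 51.5 and 52.0 in mCherry_3. It was higher in every LmnB1 library (log2 fold change 0.83, SE 0.13, edgeR adjusted p = 0.00205) and in all 4 pairings. PCK2, mitochondrial PEP carboxykinase, fell by 0.99, MPC2, a pyruvate carrier subunit, by 0.33, and PDK3, another pyruvate dehydrogenase kinase, by 2.55 (edgeR adjusted p = 0.0162, 0.0353 and 0.0396). PDK3 was at 0.518 ± 0.0628 CPM in LmnB1_16 and 0.418 ± 0.153 in LmnB1_6, against 5.20 ± 0.434 in mCherry_4 and 0.345 ± 0.120 in mCherry_3, so mCherry_4 alone was high. MPC2 was not called against mCherry_4 in LmnB1_16 (-0.09, edgeR adjusted p = 0.488) or LmnB1_6 (-0.14, edgeR adjusted p = 0.147), while mCherry_4 was below mCherry_3 (-0.41, edgeR adjusted p = 0.000221). PCK2 was not called in LmnB1_16 against mCherry_4 (-0.22, edgeR adjusted p = 0.251).

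Of 14 tested genes of the oxygen sensing machinery, 3 rose and 1 fell between the constructs (17.8% of all genes were called). EPAS1, which encodes HIF-2 alpha, had 20.4, 19.0 and 19.2 CPM in LmnB1_16 and 4.66, 4.12 and 4.77 in LmnB1_6, against 34.7, 32.3 and 33.8 in mCherry_4 and 56.1, 51.8 and 55.9 in mCherry_3. No clone overlapped another, and EPAS1 fell between the constructs by 1.88 on the log2 scale (SE 0.43, edgeR adjusted p = 0.0138) and was lower in all 4 pairings. VHL, which directs HIF to degradation, rose by 0.58, ARNT2, a HIF partner, by 0.27 and SIAH1, a ubiquitin ligase of the prolyl hydroxylases, by 0.40 (edgeR adjusted p = 0.0388, 0.0366 and 0.0416). VHL stood at 52.1 ± 1.89 and 63.3 ± 2.42 in LmnB1_16 and LmnB1_6, against 49.1 ± 2.39 and 28.0 ± 1.41 in mCherry_4 and mCherry_3, with the lowest values in mCherry_3. VHL and SIAH1 were not called in LmnB1_16 against mCherry_4 (0.09 and 0.14, edgeR adjusted p = 0.435 and 0.548). ARNT2 was not called in LmnB1_6 against mCherry_4 (0.13, edgeR adjusted p = 0.230).

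Of 34 tested further HIF targets, 3 rose and 5 fell between the constructs (17.8% of all genes were called, and 23.5% of these). PPP1R3C, a glycogen-targeting subunit of protein phosphatase 1, had 9.59, 11.4 and 9.82 CPM in LmnB1_16 and 4.75, 5.05 and 5.40 in LmnB1_6, against 24.1, 21.8 and 21.2 in mCherry_4 and 28.6, 23.4 and 24.5 in mCherry_3. The constructs did not overlap (-1.64, SE 0.22, edgeR adjusted p = 0.000715). CITED2, which competes with HIF1A for its coactivator, fell by 0.96, NOL3, an inhibitor of apoptosis, by 0.57 and GYS1, muscle glycogen synthase, by 0.27 (edgeR adjusted p = 0.00194, 0.00205 and 0.0156). PPP1R3C, CITED2 and NOL3 were lower in all 4 pairings. The other calls, named after their values were seen, were PLOD2, a lysyl hydroxylase of collagen, which fell by 0.36, and ZNF395, BHLHE40 and TMEM45A, which rose by 0.31, 0.51 and 0.44 (edgeR adjusted p = 0.0195, 0.0368, 0.0432 and 0.0464). In LmnB1_16 against mCherry_4, PLOD2, ZNF395 and BHLHE40 were not called (-0.19, 0.07 and 0.03, edgeR adjusted p = 0.136, 0.601 and 0.915). TMEM45A was called higher there (0.40, edgeR adjusted p = 0.042).

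Of 14 tested other isozymes and carriers, 0 rose and 1 fell between the constructs (17.8% of all genes were called, 9.25% as lower). SLC2A6, a lysosomal hexose transporter, had 0.827, 0.492 and 0.659 CPM in LmnB1_16 and 0.257, 0.196 and 0.0671 in LmnB1_6, against 6.23, 7.39 and 6.31 in mCherry_4 and 3.80, 4.12 and 4.29 in mCherry_3. It fell by 3.68 on the log2 scale (SE 0.44, edgeR adjusted p = 0.000488) and was lower in all 4 pairings. Of 3 tested glucose-sensing genes of the MondoA system 0 were called by edgeR and 2 had an unadjusted p under 0.05. MLXIP, which encodes MondoA, had 75.3 ± 6.45 and 85.3 ± 4.08 CPM in LmnB1_16 and LmnB1_6, against 73.4 ± 3.14 and 79.7 ± 2.04 in mCherry_4 and mCherry_3. MLX, its partner, had 52.4 ± 4.15 and 43.6 ± 4.89 CPM in LmnB1_16 and LmnB1_6, against 54.3 ± 4.28 and 58.6 ± 2.99 in mCherry_4 and mCherry_3.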

How the data were processed

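The authors deposited 1 Salmon-style table per library with estimated counts, TPM (a length-corrected share of transcripts) and effective lengths per gene, 12 tables in all. Per the submitters' processing notes, STAR, Salmon, DESeq2 and GRCh38 were used; no version, strand setting or annotation release is stated. Deposited effective lengths, in bases, served as offsets in an alternative. Gene symbols and spans came from GENCODE 29. Estimated counts were rounded to whole numbers (31.3% to 32.6% of detected genes had a value that was not whole), filtered with filterByExpr by clone (minimum count 10, total 15), normalised by TMM, whose factors lay between 0.948 and 1.06, then fitted by the quasi-likelihood test of edgeR 4.0.16 in R 4.3.3, with Benjamini-Hochberg adjustment over 15388 genes at 0.05. One fit compared 6 LmnB1 with 6 mCherry libraries, and another compared the 4 clones. limma 3.58.1 tested log2 of TPM plus 1 or 0.1, and DESeq2 1.42.0 was an alternative. CPM uses TMM-scaled library sizes. Libraries of a clone differed by more than counting noise (chi-square per degree of freedom 3.85 to 17.7), so none was counted as a duplicate. On simulated data the construct fit recovered 70.1%, 83.6% and 100% of genes changed 1.5-, 2- and 4-fold, with 11 false calls of 15064. The simulated counts had the spread within clones and no differences between clones of a construct. These rates therefore do not apply to the real construct comparison. The members and lists were chosen with earlier results of these data known. Named outside the list were LMNB1, up to 4 called genes per other list by adjusted p between the constructs, or the 2 most abundant where none was called; marker genes were named to check the cells, after their values were seen. One gene that this rule names is not reported here.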

Additional observations from a re-analysis of the deposited data

Results flagged for a closer look

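BNIP3L in mCherry_4 replicate 1, at 222 CPM, stood apart above the other 5 mCherry libraries, the only such sample in 60 groups of 6 libraries. Chance gives such a sample in about 1 of 20 groups when all 6 come from 1 population. Each group here mixed 2 clones, so that rate is only a guide, and the flag does not show a faulty library.

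The 2 LmnB1 clones differed in their change against the same mCherry clones for 16 genes (edgeR adjusted p under 0.05 for LmnB1_16 against LmnB1_6). As both are set against the same controls, this difference equals the direct contrast of the 2 clones. LmnB1_16 minus LmnB1_6 was positive on the log2 scale for HK2 (1.70), SLC2A1 (1.37), BNIP3L (0.63), SLC2A3 (0.45), ENO2 (0.28) and SLC16A3 (0.18). It was negative for NDRG1 (-0.92), PFKFB3 (-0.55), PFKFB4 (-0.51), PFKP (-0.43), BNIP3 (-0.39), GPI (-0.35), PGAM1 (-0.27), PGK1 (-0.21), LDHA (-0.17) and PFKL (-0.16). The edgeR adjusted p was 2.14e-10 for HK2, 9.51e-11 for SLC2A1 and 0.0405 for LDHA, whose call was lost in 10 other settings.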

How the results depend on the processing

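Of the 30 listed genes, 2 were called between the constructs. The number was 1 without a filter, 4 with DESeq2, 1 with limma on log2 of TPM + 1 and 1 with + 0.1, 1 with a replicate block, 12 without clone LmnB1_16, 0 without LmnB1_6, 12 without mCherry_4, 1 without mCherry_3, 0 with counts summed per clone and 0 with clone as a random effect. Leaving out 1 library gave 0 to 3: 0 without any 1 of the 3 LmnB1_6 libraries or mCherry_3 replicate 3, and 1 without replicate 2 of mCherry_4 or of mCherry_3. In LmnB1_16 against mCherry_4, 9 were called, against 5 with effective length offsets and 2 with either TPM pseudocount (7 to 11 without 1 library). In LmnB1_16 against mCherry_3, 10 were called, against 6 with effective length offsets and 6 to 11 without 1 library, 6 being without LmnB1_16 replicate 1. In mCherry_4 against mCherry_3, 17 were called, against 9 with either TPM pseudocount (14 to 19 without 1 library). The ranges without 1 library were 10 to 13 for LmnB1_6 against mCherry_4, 25 to 27 for LmnB1_6 against mCherry_3 and 11 to 16 for LmnB1_16 against LmnB1_6. Shares of all genes are not given for the TPM, effective length, no-filter and single-library counts. Those counts thus have no background beside them. In all 4 pairings of an LmnB1 with an mCherry clone 0 were called, 1 with DESeq2 and 0 to 0 without 1 library. BNIP3 turned to 0.37 between the constructs without clone mCherry_4, against -0.00047 with it. NDRG1 lost its construct call in 16 settings and HK1 in 9. Of single-gene values, 4317 stayed on the same side of the threshold, 187 lost and 78 gained a call. In 1, that of BNIP3 just given, the sign changed and the new value was called. Changes of sign among values not called in either setting were not counted. The cause of these shifts was not tested. Replicate numbers were not used as pairs in the main fits. Same-numbered libraries of different clones had deviations correlated at -0.168 to 0.335 (median 0.073, 18 pairs). Differently numbered libraries of different clones had -0.215 to 0.127 (median -0.036, 36 pairs). Whether libraries of a replicate number share a batch was not tested. Depth limits ALDOC, CA9 and EGLN3.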
